A study of Cichorium intybus with 5 samples.

Results

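The probes described here are chicory cDNA clones that were repressed after 4 days of somatic embryogenesis (SE) induction in leaf explants of the embryogenic genotype K59, and that stayed within the threshold in the non-embryogenic genotype C15. A probe was a member at a log2 ratio at or below -1 in K59 d4 vs. K59 d0 and strictly between -1 and 1 in C15 d4 vs. C15 d0. On the log2 scale, -1 stands for a signal lowered to 1/2. These limits were met by 97 of the 811 probes with both values, out of 2112 probes on the array. The clones had been pre-selected through subtractive cDNA libraries of K59 against C15 at d4. Shares of probes given below are therefore not shares of all chicory genes. Leaving out 5 clones by name (E011F11, E009A6, E007E2, N103A5 and E017B10) gave the 92 members. The paper states fewer unique genes than there are probes here, so several members may stand for the same gene. The K59 and C15 induction values chose the members, so they are given below as a description.

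C15 was obtained by selfing K59, and its cultured leaf cells begin reactivation without completing it. Explants came from 2-month-old in vitro plantlets, with 12 plants per replicate. Explants named d0 were not cultured, and d4 explants were cultured for 4 days at 35 °C in the dark on a shaker in SE induction medium. A further pair of comparisons set d4 explants of each genotype cultured with 250 µM β-Glc Y (Y+) against d4 explants cultured without it (Y-). β-Glc Y is the β-D-glucosyl Yariv reagent, a dye that binds arabinogalactan-proteins of the cell wall. The last comparison set K59 d0 directly against C15 d0. Each measurement is the log2 ratio of 2 RNA samples hybridized together, with the first-named sample in the numerator according to the labels. The study states 3 biological replicates for each condition, but the table holds 1 combined value per probe and comparison. There is no replicate spread, so no test was made, and no difference below could be set against experimental error. A log2 ratio carries no expression level, so the leaf identity of the explants could not be checked against marker levels.

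In somatic embryogenesis a differentiated cell, here of the leaf mesophyll, leaves its specialised state, enlarges its nucleus and nucleolus, divides, and forms an embryo without fertilisation. Genes for photosynthesis mark the differentiated mesophyll state, whereas ribosomal proteins, chaperones, cytoskeletal proteins and membrane coat proteins serve growth and are used by nearly every cell.

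In K59, 203 of the 867 probes with a value lay at or below -1 (23.4%) and 150 at or above 1 (17.3%). In C15, 97 of 1169 lay at or below -1 (8.3%) and 18 at or above 1 (1.54%). Of the 811 probes with both values, the 97 that met the rule made up 12%. Among the 92 members the K59 log2 ratio ran from -2.94 to -1.0 with a median of -1.58, against a median of 0.10 over all probes. The C15 log2 ratio of the same members ran from -0.99 to 0.79 with a median of -0.38, against 0.06 over all probes. The members were thus mostly lower at d4 in C15 as well: 81 had a C15 value below 0 and 11 a value above 0, and 37 lay at or below -0.5. Of all 1169 probes with a C15 value, 487 were below 0 and 665 above, and 180 lay at or below -0.5. In whole explants, fewer cells of a type and less RNA per cell cannot be told apart.

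**Figure D1:**
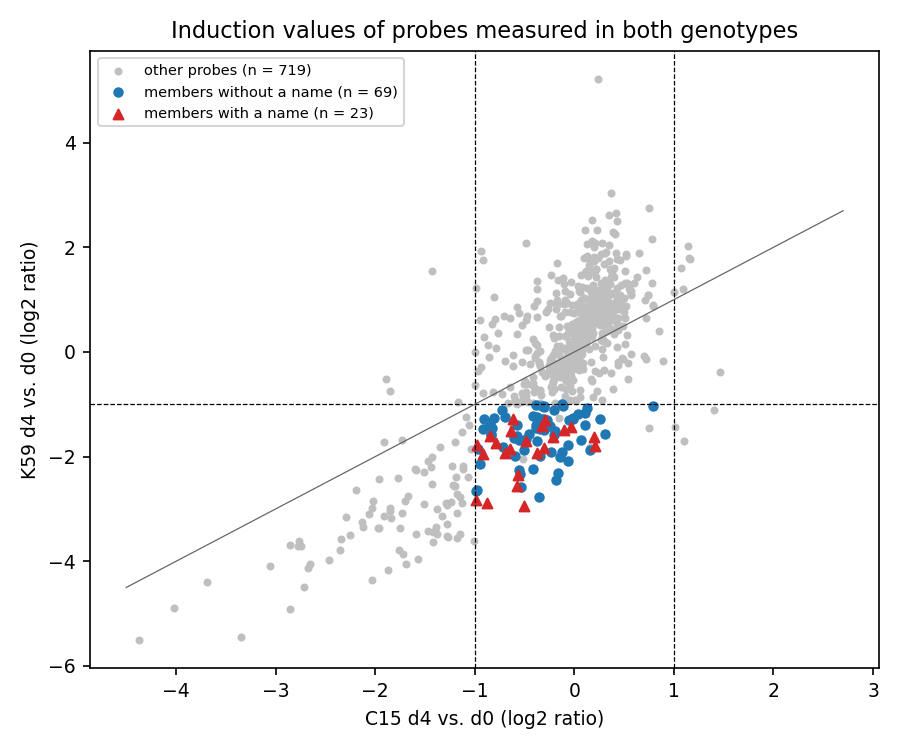
Log2 ratio of K59 d4 vs. d0 (vertical) against C15 d4 vs. d0 (horizontal) for the 811 probes with both values; triangles are the 23 members with a gene name, blue points the 69 without, grey points the other probes, dashed lines the limits of the rule and the solid line equal values. The members fill the block between -1 and 1 in C15 and most of them sit left of 0, with 81 of 92 below 0 in C15. Of all 1169 probes with a C15 value, 487 were below 0.

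The members lay at different depths in K59. There were 17 at or below -2, a further 35 at or below -1.5, and 40 above -1.5. None of the 17 deepest members was above 0 in C15, where their median was -0.55, against -0.49 in the middle range and -0.30 in the shallowest. The gap between the genotypes, K59 value minus C15 value, had a median of -1.20 and ran from -2.43 to -0.38. It reached -1 or beyond for 64 members and fell short of it for 28, so that for these 28 the genotypes differed by less than the threshold itself. The widest gaps belonged to alpha NAC protein (clone A025F3, -2.43), to clone E016D3 (-2.42) and to clone E014G4 (-2.27). The narrowest were those of E010H5 (-0.46), E006B7 (-0.38) and E010D9 (-0.38), none of which has a gene name.

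Several members and non-members differ only by the place of the limits. Just inside the K59 limit were N102H7 (-1.0), E004C11 (-1.02) and E009E4 (-1.03), and just outside it E002B8 (-0.99), E001A12 (-0.98) and A025C10 (-0.98). At the lower C15 limit, E010C6 and the chlorophyll a/b-binding protein type III precursor (clone E008F9) were inside at -0.99 and A025E3 at -0.98. N104E2 (-1.01), E002A8 (-1.04) and a poly(A)-binding protein (clone E006G5, -1.06) were outside. The upper C15 limit had few probes near it, with E011E12 (0.79), E014H4 (0.31) and E002E6 (0.26) as the highest members. Beyond it were an E3 ubiquitin ligase (clone N104F8, 1.01), E012H9 (1.10) and E009H4 (1.40). In all, 8 members lay within 0.1 of the K59 limit and 9 within 0.1 of the lower C15 limit.

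The study's annotation table pairs 23 of the 92 members with a gene, all through the clone name, and 69 members have no name here. That table lists 14 of the 23 as specific to 1 genotype and 9 as commonly regulated in K59 and C15. The latter include alpha NAC protein, endoxyloglucan transferase and the chlorophyll a/b-binding protein, the members lowest in K59. The rule used here thus divides the named genes otherwise than the study did. The table holds only genes that the study selected on these same RNA samples, so the functions below describe named members and not the module as a whole. The groups by role used below were made here and do not all match the study's classes. Beta-COP and endomembrane protein 70, for example, are classed there under metabolism, and profilin as cell cycle-related. Named members were lower in both genotypes than the others, with medians of -1.77 in K59 and -0.57 in C15 against -1.47 and -0.34. Of the 130 named genes with both induction values, 65 were at or below -1 in K59, and 36 of those were at or below -1 in C15 too.

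Translation was the largest named group, with 7 members. Its class holds 20 of the 135 genes in the annotation table, all 20 with both induction values. Over all classes, 23 of the 130 named genes with both values were members. The K59 values of the 7 ran from -2.94 to -1.63 and their C15 values from -0.65 to 0.21. For all 7 the gap reached -1 or beyond. Alpha NAC protein (A025F3, Arabidopsis hit AT3G49470), a subunit of the complex that binds new polypeptides as they leave the ribosome, had the lowest K59 value of all members, -2.94, a 7.67-fold lower signal. In C15 it stood at -0.51. It had no value with β-Glc Y in either genotype.

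The other 6 translation members encode proteins of the ribosome itself. The S29-like protein (N103G2) of the small subunit had -2.57 in K59 and -0.58 in C15. Small subunit proteins S11 (E007A9), S2 (E015B3) and S17 (N104E11) had K59 values of -1.94, -1.85 and -1.63 and C15 values of -0.38, -0.65 and -0.21, in that order. All 4 small subunit probes were therefore below 0 in C15 but at less than the K59 depth. Large subunit protein L10 (E001G12) had -1.79 in K59 and 0.21 in C15, and was 1 of the 11 members above 0 in C15. The acidic ribosomal protein (N102F1), of the family that forms the stalk to which elongation factors bind, had -1.71 in K59 and -0.49 in C15.

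Across the 20 genes that the annotation table places under ribosomal proteins and translational activities, 17 were at or below -1 in K59, 2 at or above 1 and 1 in between, with a median of -1.98. In C15, 10 were at or below -1 and 10 in between, with a median of -0.86. Apart from the 7 members, 10 of the 20 were repressed in both genotypes. Both genes above the threshold in K59 were chaperonins (E007B3, 1.28, and E017B4, 1.45), which fold proteins. A split of this list was made after its values were seen. Of the 8 ribosomal proteins, 6 were members, the acidic protein P0 (E005A8, -3.47 in K59 and -1.38 in C15) was repressed in both genotypes, and S19 (E012A3, -0.96 and -0.47) missed the K59 limit narrowly. All 4 elongation and initiation factors were repressed in both genotypes, with K59 values from -3.55 to -1.72 and C15 values from -1.51 to -1.12. The medians of the 8 ribosomal proteins were -1.82 in K59 and -0.48 in C15, and those of the 4 factors -2.23 and -1.19. This division depended on the threshold: at 1.5 in both genotypes, 7 of the 8 ribosomal proteins and 3 of the 4 factors were repressed in K59 only, and the list held 14 such genes in place of 7.

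**Figure D2:**
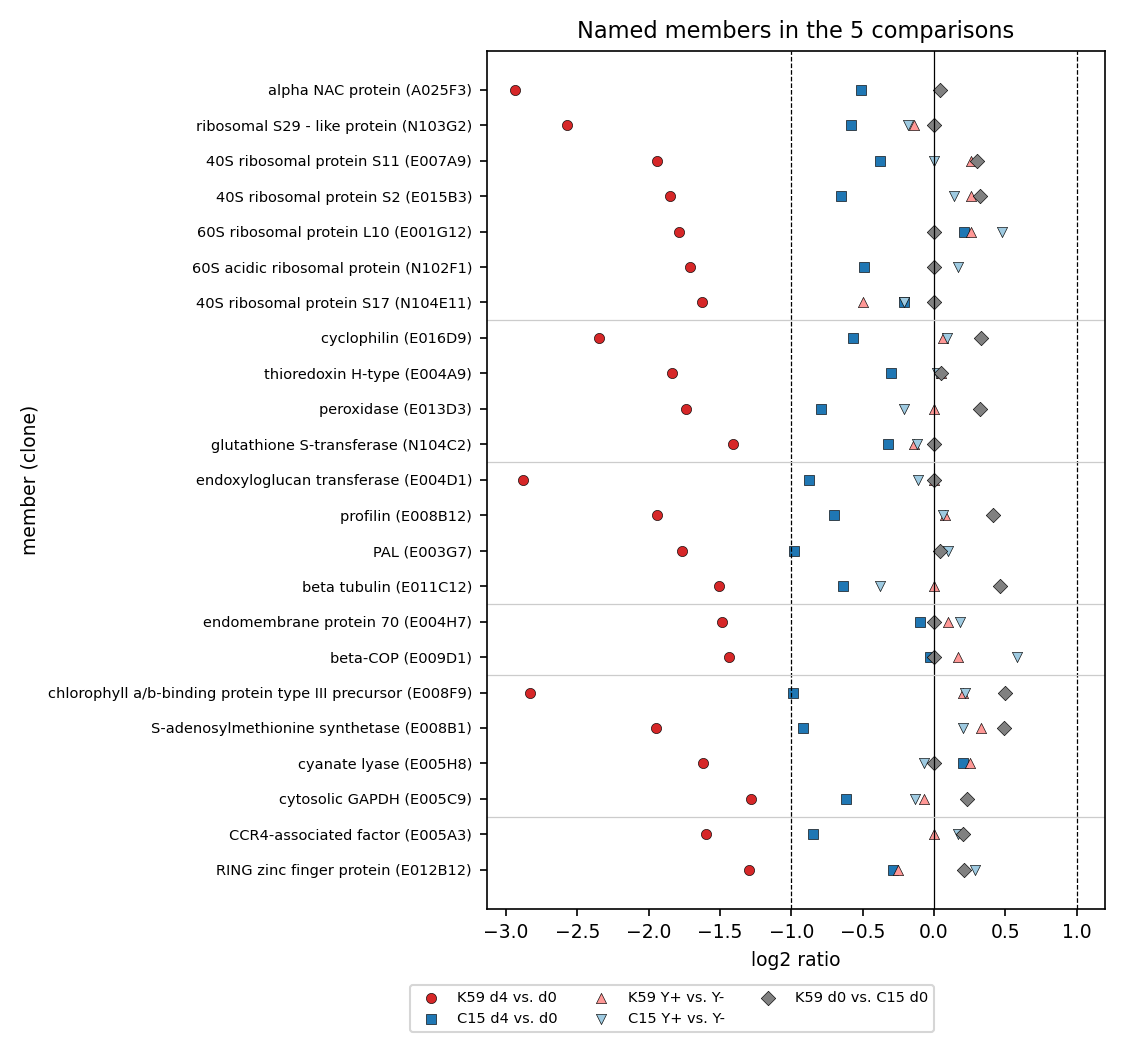
Log2 ratios of the 23 named members in the 5 comparisons, 1 row per clone and 1 symbol per comparison, with horizontal lines between the groups by role and dashed lines at -1 and 1. All K59 induction values (red circles) lie left of -1, C15 induction values lie between -0.99 and 0.21, and all values with β-Glc Y and at d0 lie between -0.50 and 0.58.

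Protein folding and redox proteins made up 4 members. Cyclophilin (E016D9), a peptidylprolyl isomerase that helps proteins fold, had -2.35 in K59 and -0.57 in C15. Thioredoxin H-type (E004A9), a reductant of protein disulphides in the cytosol, had -1.84 and -0.30. These are gaps of -1.78 and -1.54. A peroxidase (E013D3, Arabidopsis hit AT5G64120), of the enzymes that oxidise wall phenolics with hydrogen peroxide, had -1.74 in K59 and -0.79 in C15. Glutathione S-transferase (N104C2), which couples glutathione to reactive compounds, had -1.41 and -0.32. Of the 11 genes in the annotation class of cell rescue and redox processes, 10 had a K59 value. Of these 10, 5 were at or below -1, namely the 4 members and metallothionein 1 (N104E6, -2.88 in K59 and -1.29 in C15). At or above 1 in K59 were stromal ascorbate peroxidase (E006G11, 1.05), isoflavone reductase (E011H3, 1.56) and polyphenol oxidase (E017A6, 1.23), so the class had values past the threshold on both sides.

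Cell wall and cytoskeleton genes made up 4 members, all of them at or below -0.64 in C15. Endoxyloglucan transferase (E004D1), which cuts and rejoins the xyloglucan chains that tie cellulose fibres together, had -2.88 in K59 and -0.88 in C15. Phenylalanine ammonia-lyase (PAL, clone E003G7), the entry enzyme of phenylpropanoid synthesis, had -1.77 and -0.98, close to the C15 limit. Profilin (E008B12), a protein that binds actin monomers, had -1.94 in K59 and -0.70 in C15. Beta tubulin (E011C12), a building block of microtubules, had -1.51 and -0.64. The gap reached -1 for endoxyloglucan transferase (-2.0) and profilin (-1.24) only, among these 4.

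Membrane traffic was represented by 2 members with C15 values near 0. Beta-COP (E009D1), a subunit of the coat of vesicles that run from the Golgi to the endoplasmic reticulum, had -1.44 in K59 and -0.03 in C15. Endomembrane protein 70 (E004H7), of a family of membrane-spanning proteins of these compartments, had -1.49 and -0.10. Of the 5 traffic genes listed, ARF1 (E011E1, -2.39 and -1.07), a small GTPase that recruits the same coat, was repressed in both genotypes, as was an endoplasmic reticulum protein (A025A9, -2.01 and -1.43). ARF1 and the endoplasmic reticulum protein also belong to the translation class and were counted there too. The AGD6 homologue (E010G4, -0.39 and -0.32) was within the threshold in both genotypes. At a threshold of 1.5, ARF1 and the endoplasmic reticulum protein were the genes of this list repressed in K59 only, in place of both members.

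Light harvesting and primary metabolism gave 4 members. The chlorophyll a/b-binding protein type III precursor (E008F9, Arabidopsis hit AT1G61520), an antenna protein of photosystem I, had -2.83 in K59 and -0.99 in C15. It was the only member among the 6 photosynthesis genes listed. With the arrays centred on their medians it passed the C15 limit at -1.05. In that list, 4 were repressed in both genotypes. The photosystem I reaction center subunit (E008D9, -0.97 in K59 and -0.34 in C15) was not past the threshold. Centring subtracts a K59 median of 0.10, which would take this subunit past -1 and make it a member. S-adenosylmethionine synthetase (E008B1), which makes the methyl donor that is also the precursor of ethylene, had -1.95 in K59 and -0.92 in C15. Cytosolic GAPDH (E005C9), a glycolytic enzyme, had -1.28 and -0.62. Cyanate lyase (E005H8), which breaks down cyanate, stood apart from these with -1.62 in K59 and 0.20 in C15.

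The remaining 2 named members act in the turnover of RNA and protein. A CCR4-associated factor (E005A3), of the enzymes that shorten poly(A) tails of mRNA, had -1.60 in K59 and -0.85 in C15. A RING zinc finger protein (E012B12), with a domain found in many E3 ubiquitin ligases, had -1.30 and -0.29. It was the only member among the 13 ubiquitin and proteasome genes listed, of which 4 were repressed in both genotypes and 4 were at or above 1 in K59 alone. At a threshold of 1.5 the list held 3 genes repressed in K59 only, a pair of ubiquitin-conjugating enzymes (E010G5 and E015H1) and polyubiquitin (E017D10), without the RING protein. The E3 ubiquitin ligase named at the C15 limit had -1.44 in K59 and 1.01 in C15.

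Most members lay near 0 with β-Glc Y, as did most probes on the array. In K59, 78 members had a Y+ vs. Y- value, with a median of 0 and 66 of them (84.6%) within 0.5 of 0, against 90.2% of all probes. In C15, 85 had a value, with a median of 0.01 and 78 (91.8%) within 0.5, against 89.5%. The median over all probes was 0 in both genotypes. At or below -1 were 4 of the 78 members in K59, against 2.0% of all probes, and 4 of the 85 in C15, against 3.81%. No member reached 1 in either, against 0.583% of all probes in K59 and 1.03% in C15. K59 Y+ vs. Y- and the K59 induction comparison share the K59 d4 condition, and the C15 pair shares C15 d4. None of the 23 named members reached the threshold. Their values ran from -0.50 (S17) to 0.33 (S-adenosylmethionine synthetase) in K59 and from -0.38 (beta tubulin) to 0.58 (beta-COP) in C15. These counts do not cover the 5 clones left out by name. With those clones kept in, 13 members were past the threshold with β-Glc Y or at d0, against 10 without them. The lack of responders among named members therefore holds only for the 23.

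A small number of unnamed members stood apart with β-Glc Y. Clone E016D3 had -1.21 in K59 and -1.02 in C15, E014G4 had -1.01 and -1.13, and E015C12 had -1.05 and -1.24. E017D3 had -0.94 and -0.82, and E007C4 had -0.88 and -1.19. These 5 are all the members at or below -0.75 in both genotypes, 6.67% of the 75 members with both values, against 5.17% of all 1044 such probes. That limit was taken with the values known. E014D8 had -1.13 in K59 and -0.04 in C15, so that it reached the threshold in K59 without a like value in C15. The difference between the genotypes was not tested.

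**Figure D3:**
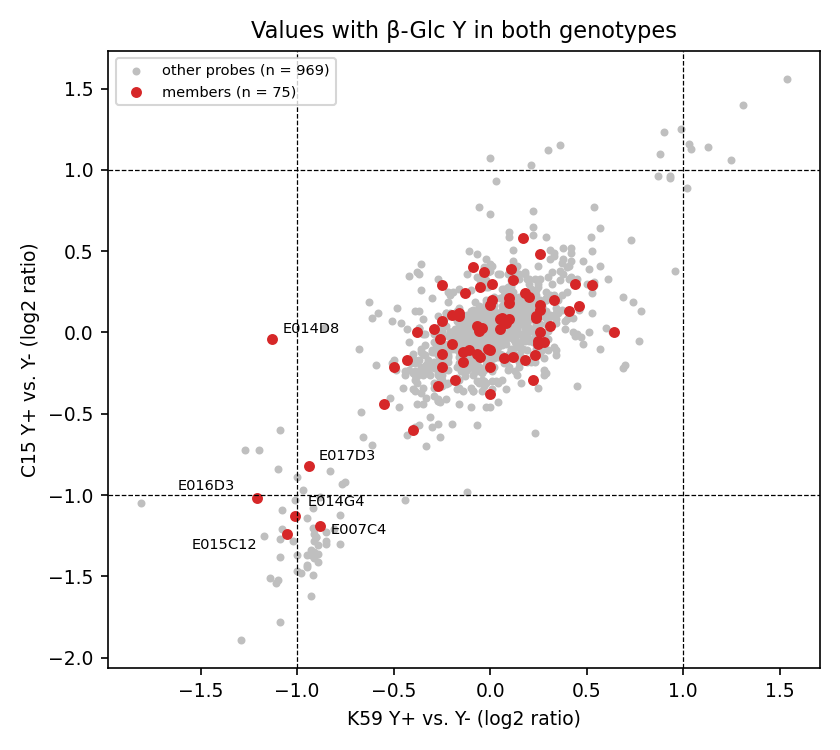
Log2 ratio of Y+ vs. Y- in C15 (vertical) against K59 (horizontal) for probes with both values, members in red (n = 75) and other probes in grey, with dashed lines at -1 and 1. Most members lie in the cloud around 0, E016D3, E014G4, E015C12, E017D3 and E007C4 lie among the probes that are low in both genotypes, and E014D8 is low in K59 alone.

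The Y+ vs. Y- comparisons of the genotypes share no RNA. Across the 75 members with both values they correlated with r = 0.71 (Spearman 0.50). Over all 1044 such probes r was 0.77 with a Spearman coefficient of 0.60. Over the 70 members outside the group at or below -0.75 in both genotypes, r was 0.38. The value of 0.71 thus rested largely on the low clones named above. No like value without low probes was taken for all probes. Members are probes on the same arrays and not independent replicates. The highest members with β-Glc Y in K59 were E006B7 (0.70, no value in C15), E003H9 (0.64, and 0.00 in C15) and N103E4 (0.53, and 0.29 in C15). In C15 they were beta-COP (0.58), ribosomal protein L10 (0.48) and E013F1 (0.40).

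Before induction, K59 d0 was compared directly with C15 d0. A value was present for 48 of the 92 members (52.2%), which include all 23 named and 25 of the 69 unnamed members. Over all probes the share was 23.3%, but only 811 of the 2112 hold both induction values, as members must. It was 52.6% for probes induced in K59 only and 57.5% for probes within the threshold in both genotypes. For probes repressed in both genotypes it was 92.0%. The direction of the K59 d0 vs. C15 d0 ratio rests on labels alone. The legend of the study's annotation table names the same order, and no independent source was at hand. The design text excepts this comparison from the 6 hybridizations of the others. The paper reports no significant differences between K59 and C15 at d0. With the direction of the labels, 30 members were above 0, 9 below and 9 listed at exactly 0, with a median of 0.15, against 0 over all probes. With the sign turned, the median would be -0.15. All 9 values of exactly 0 belong to named members, and such values may not be measurements. At or above 1 were 6 of the 48 members, against 6.71% of all probes, and at or below -1 was 1, against 1.42%.

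All 7 members past the threshold at d0 have no gene name. E016D3 had 2.56, E014G4 2.12, E002E6 1.75, E017D3 1.58, N104A12 1.46 and E011B4 1.28. E004C1 was the only one at the other end, with -1.15, followed by E003D9 (-0.86) and E010B2 (-0.57). Named members stayed between 0 and 0.50, the highest being the chlorophyll a/b-binding protein (0.50), S-adenosylmethionine synthetase (0.49) and beta tubulin (0.46). Among the 88 probes repressed in both genotypes, 81 had a d0 value with a median of 0.60, and 26 were at or above 1. Among the 137 probes induced in K59 only, 72 had one with a median of 0, and none was at or above 1. These comparisons share d0 conditions with the induction values that define the groups, so the order of the medians is not independent of the rule.

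**Figure D4:**
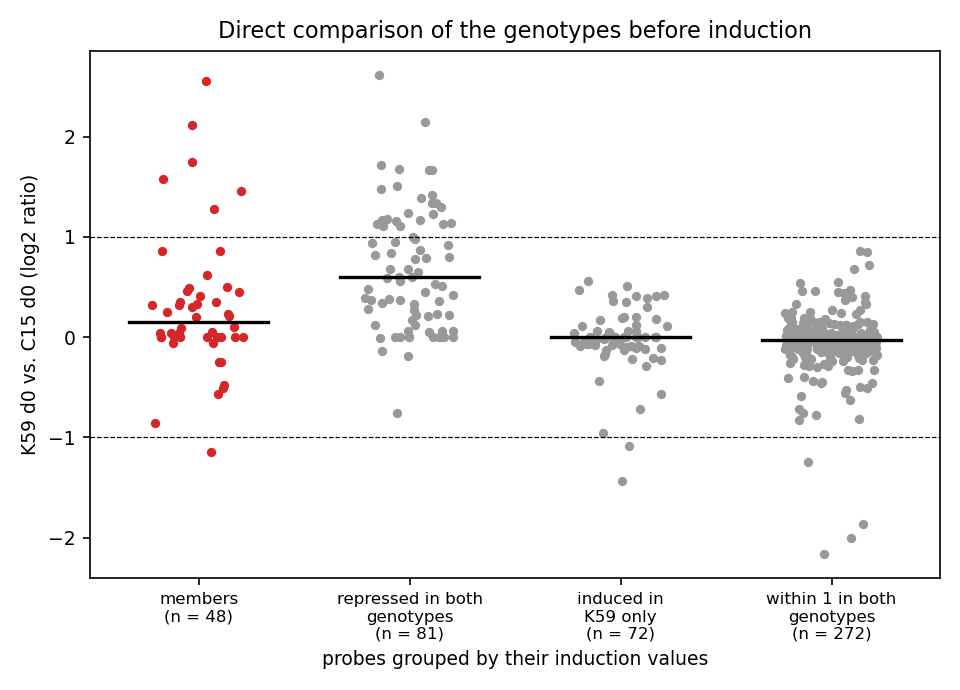
Log2 ratio of K59 d0 vs. C15 d0 (vertical, direction as labelled) for members and for the other groups of probes defined by induction values; each point is a probe, bars are medians and dashed lines mark -1 and 1. The medians are 0.15 for the members, 0.60 for probes repressed in both genotypes and 0 for probes induced in K59 only.

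The d0 value can be added to the induction gap to give the ratio of K59 d4 to C15 d4 that the 3 comparisons imply together. This sum was chosen after the values were seen, holds only for the labelled direction, and carries the error of 3 values. A deviation of the d0 RNA enters the gap and the d0 value with opposite signs and cancels in it. Over the 48 members the gap had a median of -1.21 and the sum a median of -0.98, with 34 members at or below -1 by the gap, 23 by the sum and 36 by the sum with the sign of d0 turned. For the 6 members at or above 1 at d0, the gaps ran from -2.42 to -0.55, and the sums from -0.15 to 0.73. For E016D3 the gap of -2.42 became 0.14, for E014G4 -2.27 became -0.15, and for E017D3 -1.64 became -0.06. These 3 members thus had nearly equal implied d4 signals in both genotypes. For the 41 members between -1 and 1 at d0 the median was -1.20 for the gap and -1.09 for the sum, with all 41 sums below 0. With the sign turned, the median of these 41 would be -1.39 and 40 would be below 0. Among named members, alpha NAC protein kept a sum of -2.39 and endoxyloglucan transferase and L10 sums of -2.0, the d0 values of the latter pair being listed at 0. With the sign of d0 turned, the 6 sums would run from -4.98 to -1.83 and the median of all 48 would be -1.47.

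**Figure D5:**
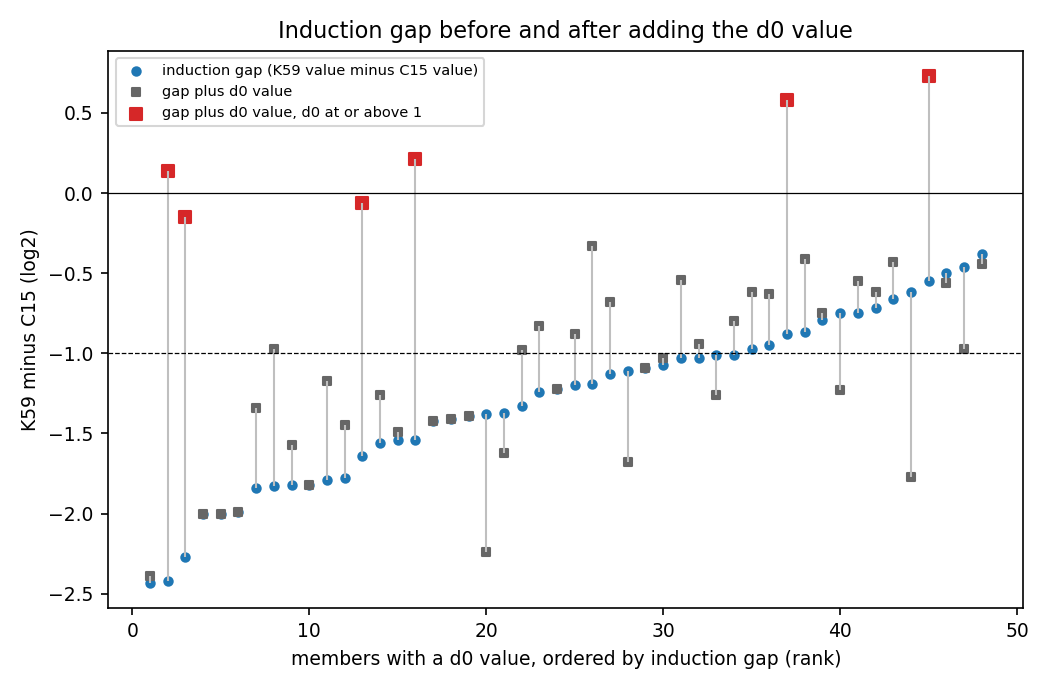
Induction gap, K59 value minus C15 value (blue circles), and the same gap plus the d0 value (squares) in log2 units for the 48 members with a d0 value, ordered by gap, with grey lines joining the values of a member. Red squares are the 6 members at or above 1 at d0, whose sums lie between -0.15 and 0.73 in the labelled direction of d0, and the other sums lie below 0.

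E016D3, E014G4 and E017D3 shared a pattern over all 5 comparisons. Whether these clones stand for separate genes could not be checked. E016D3 had -2.77 in K59 and -0.35 in C15 after induction, -1.21 and -1.02 with β-Glc Y, and 2.56 at d0. E014G4 had -2.45 and -0.18, -1.01 and -1.13, and 2.12. E017D3 had -1.98 and -0.34, -0.94 and -0.82, and 1.58. All 3 were low in K59 after induction, low with β-Glc Y in both genotypes and high in K59 at d0 in the labelled direction. Low values with β-Glc Y and a d0 value at or above 1 were found together in these 3 of the 4 low members that have a d0 value, and in 6 of the 9 probes repressed in both genotypes that are low with β-Glc Y. Among the 23 low probes within the threshold in both genotypes, and among the 9 low probes induced in K59 only, none was at or above 1 at d0. Over all probes, 9 of the 51 low probes with a d0 value were at or above 1 there. Of the probes repressed in both genotypes, low or not, 26 of 81 were at or above 1 at d0. E015C12, the other low member with a d0 value, had -0.25 at d0, and -1.88 in K59 and -0.51 in C15 after induction.

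The first part of the clone name, such as A025, divides the probes into 22 groups of 96. These groups are read here as clone plates, which is inferred from the names alone. The members came from 21 of the 22 groups. Of all probes with both induction values, 12% met the rule, before clones were left out by name. The highest shares of members among such probes were 40% in group E003 (6 of 15) and 36.4% in group A025 (8 of 22). The lowest were 1.22% in group E017 (1 of 82) and none among 23 probes in group N101. The groups differ in the clones they carry, and the part of the plate in the result was not tested.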

How the data were processed

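Leaf explant RNA was compared on 2-colour cDNA microarrays. The authors read the slides in GenePix Pro 6.0 and discarded spots that were saturated, artefactual or too weak. Background-corrected medians were normalized in R by lowess over the array, then by the median of each print tip. The authors also dropped probes whose ratio reversed between dye orientations, and deposited log2 ratios, 1 per probe and comparison. How 3 biological replicates were combined is not stated in the sources used here, so the depth and precision of each value are unknown. Repressed low-signal probes could be lost by the spot filter.

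The members and lists were chosen with earlier results of these data known. Members were selected at the limits of the report, values were counted and medians taken over probes with a value, without tests. Named genes were every named member, the 5 lowest in K59, those nearest the limits, those with the widest and narrowest gaps, and the extremes with β-Glc Y and at d0. The 5 lowest in K59 include the unnamed clones E016D3 (-2.77) and E010C6 (-2.65). The selection was tested on simulated data. Python 3.11.15, numpy 2.4.6, pandas 2.3.3 and matplotlib 3.10.9 were used. Alternatives were other thresholds, median centring, a minimum gap, complete or named probes only, and keeping the 5 left-out clones. No sequences of the clones were used here.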

Additional observations from a re-analysis of the deposited data

Results flagged for a closer look

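E011E12 was the only member with a C15 induction value at or above 0.5. K59 d4 vs. d0 gave -1.04 and C15 d4 vs. d0 gave 0.79, values of opposite sign that the choice of members used. The difference was not tested. With β-Glc Y it had -0.07 in K59 and 0.04 in C15, and at d0 0.86.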

How the results depend on the processing

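A median that moved by more than 0.1, or a count by more than 1.5 times, was taken as changed. Of 58 summary values recomputed, 40 did not change. The 92 members became 95 at a threshold of 0.95 (86 shared) while median centring kept 86, added 15 and lost 6, and there PAL (-1.04) and the chlorophyll a/b-binding protein (-1.05) passed the C15 limit. A K59 limit of -1.5 left 52 members, with medians of -1.86 in K59 and -0.51 in C15 and 5 members past the threshold with β-Glc Y or at d0. A C15 limit of 0.5 left 54, with -1.46, -0.22 and 5. A gap of at least 1 left 64, with a K59 median of -1.70 and 6 past the threshold. Named probes alone numbered 23, with -1.77, -0.57 and 0, and complete probes 42. At a threshold of 0.95 the K59 median was -1.47. The d0 median was 0.30 without values of exactly 0 and -0.15 with the sign turned. The translation list held 14 genes repressed in K59 only at a threshold of 1.5, against 7, and the ubiquitin and proteasome list 3, against 1. No paired analysis was possible because each comparison has 1 value per probe. Spot intensities were not analysed here, so limits set by low signal are unknown.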
